A study of Mus musculus with 2 samples.

Results

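The circadian clock genes were followed in gastrocnemius (GAS) muscle of WT mice and of mice whose skeletal muscle lacks *Gde5*, the gene of an enzyme that splits glycerophosphocholine into choline and glycerol 3-phosphate. The set holds 10 genes, chosen by name: Arntl, Clock, Nfil3, Nr1d1, Dbp, Tef, Hlf, Per3, Per1 and Per2. They were represented by 20 probes, each with 1 spot on each array, out of 41069 probes in all. Of these, 18 member probes, with at least 1 for each of the 10 genes, were tested because 1 channel or both stood well above background on each array, out of 19073 probes of 13589 genes tested in all.

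The samples were 2 two-colour Agilent arrays of male mice aged 15 weeks on a C57BL/6 background and a normal diet. *Gde5* skKO mice carried floxed *Gde5* alleles and the HSA-Cre transgene, in which a human α-skeletal actin promoter drives Cre in muscle fibres, so the other cells of the muscle keep the gene. Controls are labelled wild-type, and for other experiments of the study they were floxed littermates without Cre. The labels mention 5 mice, and no source states if that RNA was pooled, or if 1 preparation went onto both arrays. On array 1 *Gde5* skKO RNA carried Cy5 and WT RNA Cy3, and array 2 had the dyes the other way round. The study describes muscle arrays both after a glucose injection and with fasting, and the labels do not say which of these states the arrays analysed here hold. Feeding and fasting are known to act on the clock genes and on fasting-responsive genes. The hour of tissue collection is not given in the sources used here, and each array holds a single time point, so no rhythm could be measured.

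The clock of each cell is a feedback loop of transcription. The products of Arntl (BMAL1) and Clock bind together to E-boxes and switch on the Per and Cry genes, whose proteins return to block them, and also Nr1d1, whose product REV-ERBα represses Arntl, Clock and Nfil3 through ROR elements. DBP, TEF and HLF, related factors that are outputs of the same loop, activate genes through D-boxes, and NFIL3 opposes them there. In skeletal muscle this clock is known to time fuel use, glucose uptake and myogenic genes, and in mice Arntl is highest around the end of the night, Nr1d1 and Dbp in the day, and Per2 around dusk.

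The promoters of the clock genes were searched for the letters of elements that these factors, or CREB for the cAMP response element, are known to bind. RefSeq entries on GRCm38.p6, from 250 bases before to 50 bases after a start site, were found for 9 of the 10 genes, with 14 start sites, and Per2 had no entry. Shown first are the promoters of Hlf, Dbp and Per1, the genes with the most negative ratios among single-probe members, and then Tef, Per3 and Arntl for contrast. Capitals mark an E-box CACGTG, a D-box TTATGTAA, a ROR and REV-ERB half-site AGGTCA or TGACCT, or a cAMP response element TGACGTCA, searched on both strands along with the E-box-like CACGTT and the D-box form TTACGTAA. None of the matches shown overlaps another.
Hlf promoter, chr11:90390868-90391167, minus strand: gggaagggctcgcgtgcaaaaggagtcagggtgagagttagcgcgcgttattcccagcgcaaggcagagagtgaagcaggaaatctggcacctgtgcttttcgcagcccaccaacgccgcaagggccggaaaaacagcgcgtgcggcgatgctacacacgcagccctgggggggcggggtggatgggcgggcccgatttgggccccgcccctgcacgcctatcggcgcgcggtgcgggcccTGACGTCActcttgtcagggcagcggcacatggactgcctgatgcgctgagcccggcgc
Dbp promoter, chr7:45704997-45705296, plus strand: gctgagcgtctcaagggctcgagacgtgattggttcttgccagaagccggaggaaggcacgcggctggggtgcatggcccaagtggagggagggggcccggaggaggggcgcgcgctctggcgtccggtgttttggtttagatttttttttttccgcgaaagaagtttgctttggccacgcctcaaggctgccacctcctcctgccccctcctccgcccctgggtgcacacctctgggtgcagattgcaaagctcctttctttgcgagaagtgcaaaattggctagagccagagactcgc
Per1 promoter, chr11:69098699-69098998, plus strand: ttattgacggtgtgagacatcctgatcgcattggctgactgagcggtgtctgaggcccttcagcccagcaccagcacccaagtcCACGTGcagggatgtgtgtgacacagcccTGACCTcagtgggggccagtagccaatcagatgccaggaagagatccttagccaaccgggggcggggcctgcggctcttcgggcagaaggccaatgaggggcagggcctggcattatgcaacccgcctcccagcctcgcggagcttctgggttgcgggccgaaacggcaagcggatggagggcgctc
Tef promoter, chr15:81802423-81802722, plus strand: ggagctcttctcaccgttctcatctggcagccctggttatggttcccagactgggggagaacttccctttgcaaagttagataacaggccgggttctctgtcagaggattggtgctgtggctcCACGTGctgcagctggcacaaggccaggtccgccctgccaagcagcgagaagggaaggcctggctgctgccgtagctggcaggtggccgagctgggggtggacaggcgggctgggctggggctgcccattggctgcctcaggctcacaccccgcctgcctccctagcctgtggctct
Per3 promoter, chr4:151044616-151044915, minus strand: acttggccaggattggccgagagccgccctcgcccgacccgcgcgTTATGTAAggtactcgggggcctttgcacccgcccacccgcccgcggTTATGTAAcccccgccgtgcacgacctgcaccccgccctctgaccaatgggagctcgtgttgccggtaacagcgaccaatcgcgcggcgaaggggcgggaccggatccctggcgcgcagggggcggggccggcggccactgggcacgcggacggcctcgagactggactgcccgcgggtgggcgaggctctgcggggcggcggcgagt
Arntl promoter, chr7:113207261-113207560, plus strand: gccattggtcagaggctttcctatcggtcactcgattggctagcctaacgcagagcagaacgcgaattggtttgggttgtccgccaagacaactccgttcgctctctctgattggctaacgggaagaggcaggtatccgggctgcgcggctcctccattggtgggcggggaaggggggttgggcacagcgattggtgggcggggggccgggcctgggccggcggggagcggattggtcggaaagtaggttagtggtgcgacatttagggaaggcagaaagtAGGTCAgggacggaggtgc
Per1 held an E-box whose first base was at -166 from the start site, and the Tef promoter shown held one at -127, as did its other start site at -138. Of all 32851 promoters of this length, 7.15% held this E-box. The Per3 promoter held 2 D-boxes, at -205 and -158, an element found in 0.938% of promoters. The half-site was present at a start site of Arntl, Clock, Nfil3 and Per1 and in 16.3% of all promoters. The Hlf promoter held a cAMP response element at -9, as 1.79% did. The Nr1d1 promoter held an E-box-like element, found in 4.68%, and the other D-box form was in 0.119% and in no member. Dbp held none of these letters in this window.

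Each ratio below is log2 of *Gde5* skKO over WT from the deposited spots, and the error after ± on a single array is that of the scanner software's error model for the spot. Each p beside such a ratio is also the software's (Feature Extraction), or the median over the spots of a probe that has several. A probe was called when this p was under 0.05 on both arrays with the same direction. This p speaks for the spots of a hybridization, not for the spread between mice, and 2 arrays limit the precision of every mean. Since a probe's brightness depends on its sequence, signals are compared between genotypes for 1 probe and never between genes. Less RNA per cell and fewer cells of a type cannot be told apart in whole muscle.

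*Gde5*, listed under an older name, was checked first. Its 3 probes at chr2:132221088-132221147, chr2:132221110-132221169 and chr2:132225539-132225598 on mm8 had mean log2 ratios of -2.93, -2.97 and -3.18. A further probe at chr2:132256048-132256107 had -0.26, and where these probes lie relative to the floxed exon was not determined. Of 8 muscle fibre marker genes, all were well above background and none of their 11 tested probes was called, with mean log2 ratios from -0.34 to 0.36.

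Of the clock genes, Hlf alone was called, and it was lower in *Gde5* skKO muscle. That is 1 of 18 tested member probes, where 1.58% of all tested probes were called lower. No member probe was called higher, against 1.48% of all probes. None passed with opposite turned ratios, the direction of a dye effect, against 1.68%. The median of the mean log2 ratio was -0.06 over the 18 member probes and 0.02 over all tested probes.

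**Figure D1:**
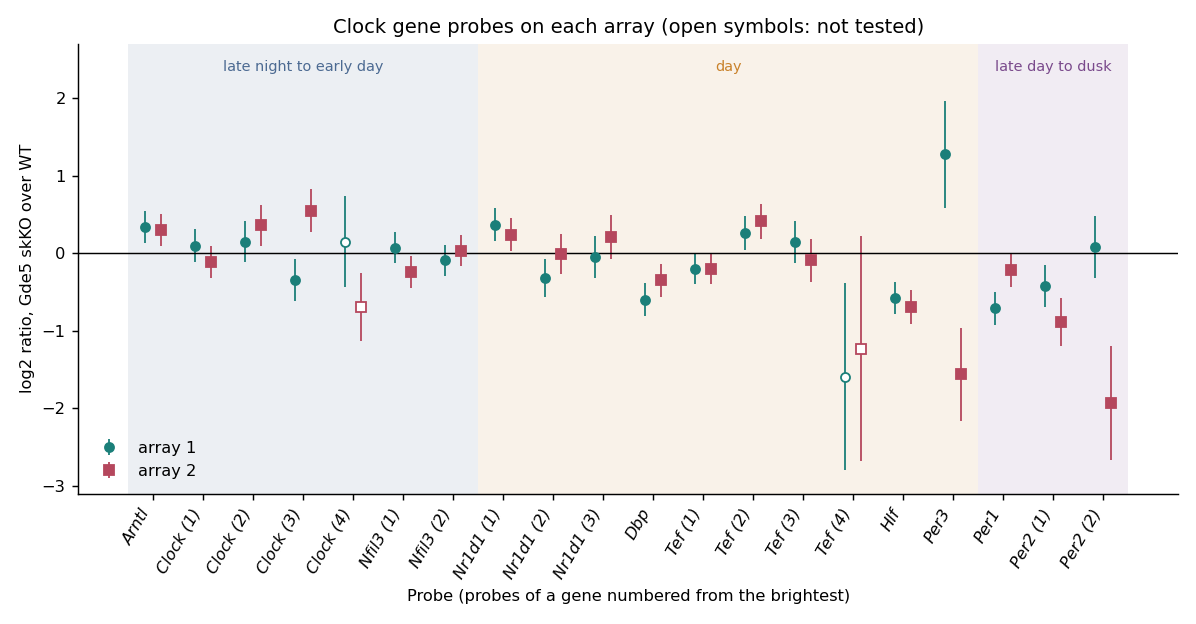
Log2 ratio of *Gde5* skKO over WT (vertical axis) for each of the 20 clock gene probes (horizontal axis), on array 1 (circles) and array 2 (squares). Bars are the error-model error of the spot, open symbols mark the 2 probes that were not tested, and shading gives the known phase. Both Hlf points lie below 0, at -0.58 and -0.69, while the points of Per3 lie on opposite sides.

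Hlf encodes hepatic leukemia factor, a D-box activator. Its probe at chr11:90154754-90154813 on the minus strand read 601 in *Gde5* skKO and 896 in WT on array 1, and 736 and 1189 on array 2. Both *Gde5* skKO values lay below both WT values. The log2 ratio was -0.58 ± 0.21 with a p of 0.0067 on array 1 and -0.69 ± 0.22 with a p of 0.0015 on array 2. The mean was -0.63 ± 0.08 (SD, n = 2 arrays), or 1.55-fold lower. The call was made on each array alone and was lost after Benjamini-Hochberg adjustment within each array, where the adjusted Feature Extraction p was 0.13 and 0.053. With normexp and loess in limma the mean was -0.43, adjusted p = 0.18, and mean signals centred on the median gave -0.27.

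Dbp encodes the albumin D-site binding protein, a strongly rhythmic output factor related to HLF and TEF. Its probe at chr7:45577937-45577996 read 19972 in *Gde5* skKO and 30324 in WT on array 1, and 22791 and 29019.7 on array 2. Again both *Gde5* skKO values lay below both WT values, but only array 1 passed the threshold. The ratio was -0.60 ± 0.21 with a p of 0.0044 on array 1 and -0.35 ± 0.21 with a p of 0.091 on array 2. The mean was -0.48 ± 0.18 (SD, n = 2 arrays), with a 95% interval from the spot errors of -0.77 to -0.19. With normexp and loess in limma the mean was -0.47, adjusted p = 0.13, and mean signals centred on the median gave -0.28.

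Tef, the remaining D-box activator, did not give 1 direction over its probes. The brightest, at chr15:81653753-81653812, read 7638 in *Gde5* skKO and 8755 in WT on array 1, and 9135 and 10527 on array 2. Its ratio was -0.20 on both arrays, with an interval of the mean of -0.48 to 0.08. The next, at chr15:81643379-81643438 and annotated to a separate cDNA, had ratios of 0.26 and 0.41. The third, at chr15:81651043-81651102, had 0.14 and -0.09. The last, whose annotation spans 2106 bases and so crosses a gap in the genome, did not rise well above background anywhere. The Tef probes thus bracket 0, and none was called.

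Nr1d1, the REV-ERBα repressor, also had probes on both sides of 0. The brightest, annotated over 503 bases of chr11:98585302-98585804, read 1158 in *Gde5* skKO and 893 in WT on array 1, and 1210 and 1025 on array 2. It was the reverse of Dbp and Hlf, with both *Gde5* skKO values above both WT values. Its ratios were 0.37 ± 0.21 with a p of 0.071 and 0.24 ± 0.21 with a p of 0.25, so it was not called. The 2 dimmer probes, at chr11:98588628-98588687 and chr11:98588108-98588167, had mean log2 ratios of -0.16 and 0.08.

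Per3, a period protein dispensable for the loop itself, could not be followed. Its probe at chr4:149848947-149849006 read 27.1 in *Gde5* skKO and 11.2 in WT on array 1, and 15.8 and 46.7 on array 2. It was well above background only in the Cy5 channel of each array, which held *Gde5* skKO RNA on array 1 and WT RNA on array 2. The ratio was 1.28 ± 0.69 on array 1 and -1.56 ± 0.60 on array 2, opposite in direction, and the dye component of the ratio, the part that keeps its sign when the dyes are swapped, was 1.42. With normexp and loess in limma both ratios were near 0, at -0.01 and -0.12.

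Over these 5 day-phase genes, 1 of 9 tested probes was called, 4 were below 0 on both arrays, 2 were above 0 on both and 3 were split. Over all tested probes, 1.58% were called lower, 24.5% were below 0 on both, 29.3% above, and 8821 of 19073 were split. The median of the 9 day-phase means was -0.14, against 0.02 over all tested probes. That median is the value of Per3 itself, which could not be followed, so it says little about the phase. The 4 probes below 0 on both arrays were of Hlf, Dbp, Tef (the brightest) and Nr1d1 (a dim one).

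**Figure D2:**
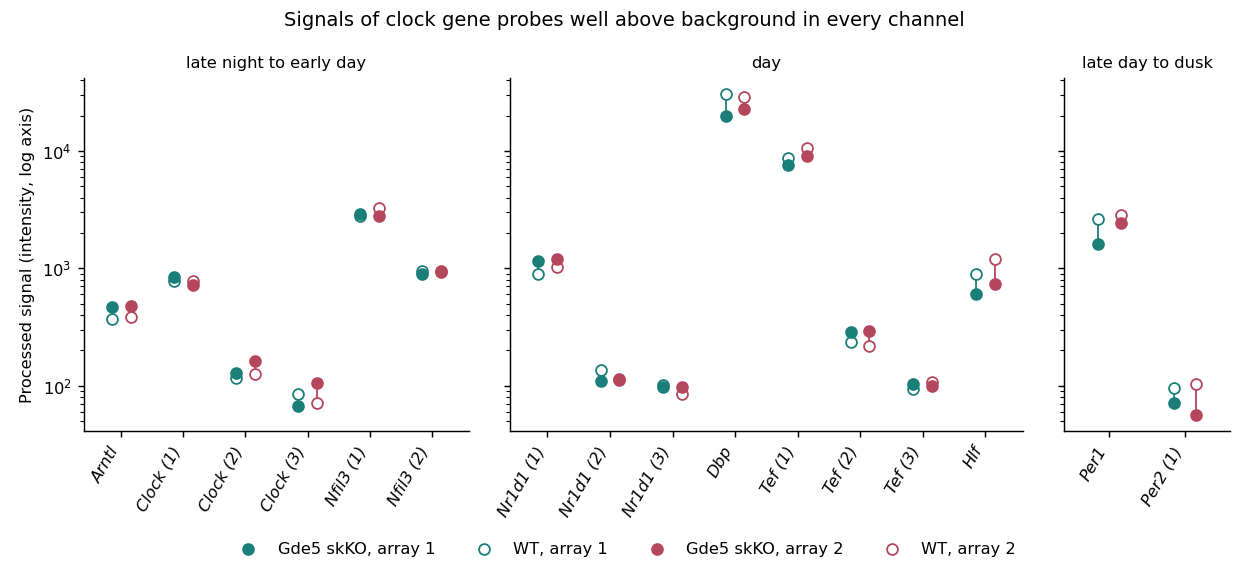
Processed signal on a log axis for the 16 clock gene probes with all 4 channel signals well above background, by known phase. Filled points are *Gde5* skKO, open points WT, in green for array 1 and red for array 2, and a line joins the genotypes of an array. The open points of Hlf and Dbp lie above the filled ones on both arrays, and those of Arntl and the brightest Nr1d1 probe below them.

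The 2 genes of late day and dusk, Per1 and Per2, encode the period repressors that close the loop. The Per1 probe at chr11:68925571-68925630 read 1626 in *Gde5* skKO and 2654.5 in WT on array 1, and 2421 and 2825 on array 2. *Gde5* skKO was the lower of each pair, by a ratio of -0.71 ± 0.21 with a p of 0.00096 on array 1 and -0.22 ± 0.21 with a p of 0.28 on array 2. The array 1 value is the only member value that also passed after adjustment within its array, with an adjusted Feature Extraction p of 0.038. The mean was -0.46 ± 0.34 (SD, n = 2 arrays), with an interval of -0.76 to -0.17 and a limma adjusted p = 0.31, and mean signals centred on the median gave -0.24.

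Per2 had a dim signal, with 2 probes on the minus strand. The brighter, at chr1:93246875-93246934, read 71.4 in *Gde5* skKO and 95.3 in WT on array 1, and 55.8 and 103 on array 2. Both *Gde5* skKO values lay below both WT values, with ratios of -0.42 ± 0.27 (p of 0.13) and -0.89 ± 0.31 (p of 0.0045). Here array 2 passed and array 1 did not, the opposite of Per1 and Dbp. The mean of -0.65 ± 0.33 (SD, n = 2 arrays) was -0.20 with normexp and loess in limma (adjusted p = 0.71). The dimmer probe, at chr1:93270367-93270426, was well above background only in Cy5 and had ratios of 0.08 and -1.93. In this phase 2 of the 3 probes were below 0 on both arrays, against 24.5% of all tested probes. The median of the 3 means was -0.65 as deposited and -0.20 with limma, against 0.02 and 0.00 over all tested probes. It counts the dimmer Per2 probe, which passed the filter on array 2 through the WT channel alone, so it is no firm value for the phase.

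The remaining phase, late night to early day, holds the activators Arntl and Clock and the D-box repressor Nfil3. The Arntl probe at chr7:113104645-113104704 read 466 in *Gde5* skKO and 368 in WT on array 1, and 473 and 385 on array 2. Both *Gde5* skKO values were above both WT values, and the 2 ratios lay close together, at 0.34 ± 0.21 (p of 0.1) and 0.30 ± 0.21 (p of 0.16). Neither passed, so Arntl was not called, with a mean of 0.32 ± 0.03 (SD, n = 2 arrays), an interval of 0.03 to 0.61 and a limma adjusted p = 0.55. On both arrays the ratio of Arntl had the opposite sign to those of Dbp, Hlf and Per1, of which only Hlf was called. Day-phase probes also shared the sign of Arntl on both arrays. These were the brightest Nr1d1 probe, at 0.37 and 0.24, and a Tef probe, at 0.26 and 0.41. The brightest Tef probe, at -0.20 on both, did not.

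Clock, the partner of BMAL1, gave no direction. Its brightest probe, at chr5:77287127-77287186, read 842 and 785 on array 1 and 726 and 783 on array 2, *Gde5* skKO first. The ratios of 0.10 and -0.11 gave a mean of 0.00 with an interval of -0.29 to 0.28, so differences within these bounds remain possible. The second probe, at chr5:77287523-77287582, had 0.15 and 0.36. The third, at chr5:77310328-77310387 and annotated to a separate cDNA, had -0.34 and 0.55, the latter with a p of 0.049. The fourth was well above background only in the WT channel of array 2 and was not tested.

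Nfil3 was also without a direction over its 2 probes. The brighter, at chr13:52979648-52979707, read 2914 in *Gde5* skKO and 2779 in WT on array 1, and 2800.2 and 3297.5 on array 2. Its ratios were 0.07 and -0.24, with an interval of the mean of -0.37 to 0.20. The other, at chr13:52979932-52979991, had -0.09 and 0.03, with an interval of -0.31 to 0.25. Of the 6 tested probes in this phase, none was called, 2 were above 0 on both arrays (Arntl and a Clock probe), none was below 0 on both, and 4 were split. The shares of all tested probes were 29.3% above and 24.5% below, with 8821 of 19073 split. The median of the 6 means was 0.05, against 0.02 over all tested probes.

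The counts of the members were read against those of all probes. Over the 18 tested probes, 6 were below 0 on both arrays, against 24.5% of all probes, and 4 were above 0 on both, against 29.3%. The other 8 were split, as were 8821 of all 19073 tested probes. On array 1 alone, Per1, Dbp and Hlf were lower at p under 0.05, 3 of 18 against 5.26% of all probes, and 0 were higher, against 7.88%. On array 2 alone, Hlf, Per3 and both Per2 probes were lower, 4 of 18 against 6.88%, and 1 Clock probe was higher, against 7.16%. Per3 and the dimmer Per2 probe were tested on each array through its Cy5 channel alone, which on array 2 held WT RNA. The filter thus favoured a lower ratio for these 2 probes there. The lists of the 2 arrays shared Hlf only. By the interval of the mean, a criterion added after the values were seen, 5 probes lay below 0 (Hlf, Dbp, Per1 and both Per2 probes), against 6.20% of all probes, and 3 lay above (Arntl and the Nr1d1 and Tef probes with the highest means), against 8.26%. The dimmer Per2 probe had ratios of 0.08 and -1.93, so its mean rests on array 2.

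**Figure D3:**
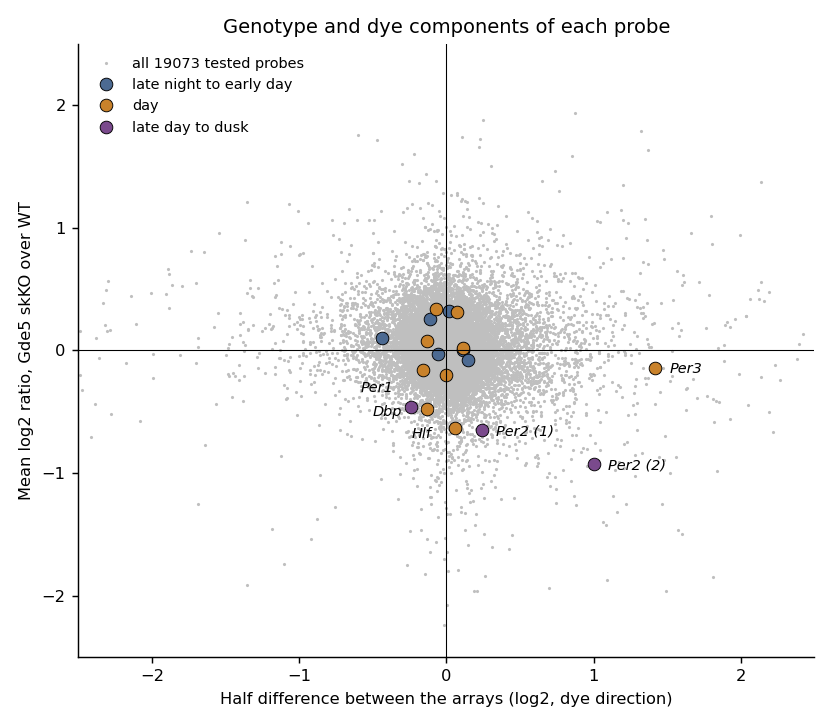
Mean log2 ratio of *Gde5* skKO over WT (vertical axis) against the dye component (horizontal axis), for all 19073 tested probes in grey and the 18 clock gene probes in colour by phase. Of these probes, 15 lie outside the axes and are not drawn. Hlf sits at -0.63 with a small dye part, and Per3 far to the right at 1.42.

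No other clock component was called. Of 18 other clock components, such as cryptochromes and kinases of the period proteins, 10 genes had a tested probe, and 0 of 17 tested probes passed in either direction. Among all tested probes, 1.58% were called lower and 1.48% higher. Cry1, Npas2, Arntl2, Rorb and Fbxl21 had no channel well above background by their brightest probe. Among those tested, Nono, a partner of the period proteins, had a mean log2 ratio of 0.36 by its dimmer probe. Its brighter probe had -0.02. Nr1d2, the near relative of Nr1d1, read 3814 in *Gde5* skKO and 4088 in WT on array 1, and 3802.5 and 4655 on array 2, with a mean of -0.20. The median over the list was -0.04.

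Among 16 clock-controlled output genes, 14 had a tested probe, and 2 of 19 tested probes were called higher and 0 lower. The shares of all tested probes were 1.48% higher and 1.58% lower. Pdk4, a kinase that shuts off pyruvate dehydrogenase, read 35432 in *Gde5* skKO and 23834 in WT on array 1, and 30511 and 17214 on array 2. Its ratios were 0.57 (p of 0.0066) and 0.83 (p of 0.00015), with an adjusted p of 0.028 in limma. Its call was lost after adjustment within arrays, where the adjusted Feature Extraction p was 0.13 on array 1, and under the methods' t-test of the channel signals. Cdkn1a, the cell cycle inhibitor p21, read 508 in *Gde5* skKO and 280 in WT on array 1, and 504 and 286 on array 2. Its ratios were 0.86 (p of 0.0001) and 0.82 (p of 0.00039), with an adjusted limma p of 0.09. The next in size, none called, were the coactivator gene Ppargc1b at 0.33, Klf10 at 0.26 and Noct at 0.26. The muscle clock targets Tcap, Myod1 and Ucp3 had means of -0.24, 0.20 and -0.03.

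**Figure D4:**
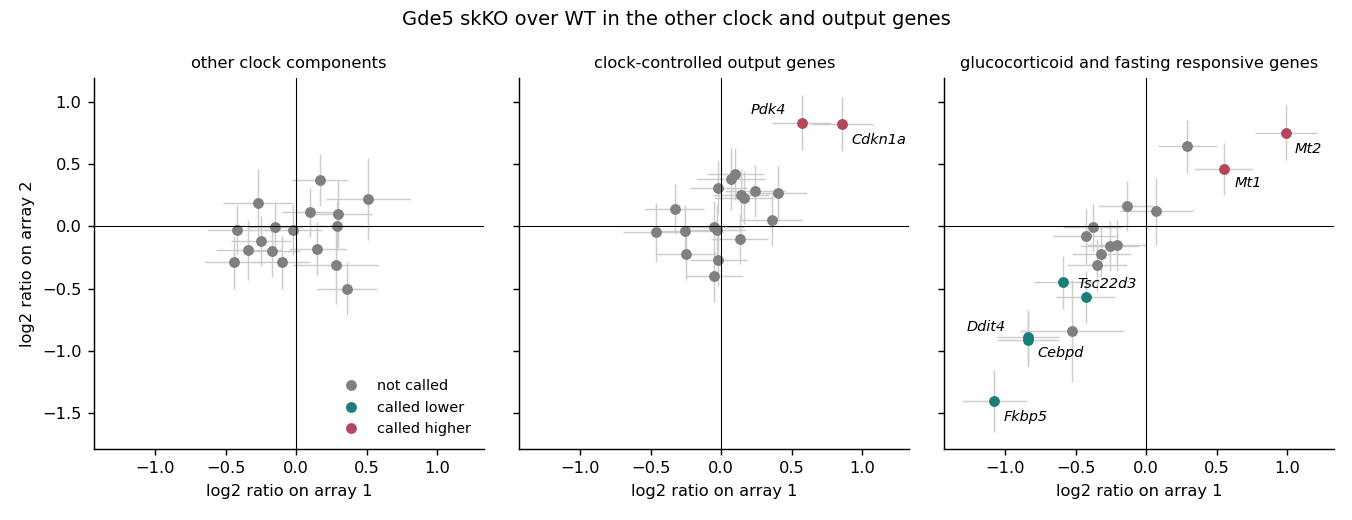
Log2 ratio of *Gde5* skKO over WT on array 1 (horizontal axis) against array 2 (vertical axis) for tested probes of 3 gene lists, with error-model errors. Probes called on both arrays are coloured and named. No clock component was called, Pdk4 and Cdkn1a lie at the upper right, and the glucocorticoid and fasting genes spread along the diagonal from Fkbp5 to Mt2.

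Several hormone-responsive genes are known to share inputs with the clock, since glucocorticoids and feeding reset Per1 and other members. In a list of 11 such genes besides Per1, 10 were on the arrays, and 5 of 17 tested probes were called lower and 2 higher. Over all tested probes the shares were 1.58% and 1.48%. The lower genes were Fkbp5, a cochaperone of the glucocorticoid receptor, with ratios of -1.08 and -1.40, and Cebpd, a transcription factor, with -0.84 and -0.89. Ddit4, an inhibitor of mTOR signalling, had -0.84 and -0.91, and the leucine zipper gene Tsc22d3 had -0.43 and -0.57 by one probe and -0.59 and -0.45 by another. The 2 other Fkbp5 probes and the remaining Tsc22d3 probe were not called, with means of -0.26, -0.68 and -0.27. The metallothionein genes Mt1, with 0.55 and 0.46, and Mt2, with 0.99 and 0.75, were called higher, while a second Mt1 probe was not, with ratios of 0.07 and 0.12. The next in size were Klf9 at 0.47 by its dimmer probe, Trim63 at -0.21 and Sgk1 at -0.20. The brighter Klf9 probe went the other way, with ratios of -0.35 and -0.31 and a mean of -0.33. The list was chosen with earlier results of these arrays known, so its counts are a description.

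Some markers of other cells were also lower. Of 8 adipocyte genes, 5 were called lower (Adipoq, Cfd, Cidec, Plin1 and Retn), by 6 of 10 tested probes, against 1.58% of all tested probes. The median over the 10 probes was -0.70 as deposited and -0.33 with normexp and loess in limma. Fabp4 and Pparg were not called, and Lep was not well above background. The summed signal of the list was 43801 in *Gde5* skKO and 44352 in WT on array 1, and 41754 and 45684 on array 2, and most of it came from Fabp4, which read 38866.5 and 35638 on array 1. The sum therefore says little about the 5 called genes. Of the hepatocyte genes, Mup1 was called lower, by 2 of the 5 tested probes of the list, against 1.58% of all. Of these 5 probes, 4 were below 0 on both arrays, against 24.5% of all. Their median was -0.66 as deposited and -0.17 with normexp and loess in limma. On the arrays 4 of 9 hepatocyte genes stayed near background in every channel, Apoa1 and Fga among them. No leukocyte, blood, nerve or fibroblast probe was called, and of 9 tested endothelial probes 1, of Kdr, was called higher, against 1.48% of all. The part of these markers in the values of Hlf, Dbp and Per1 was not tested.

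**Figure D5:**
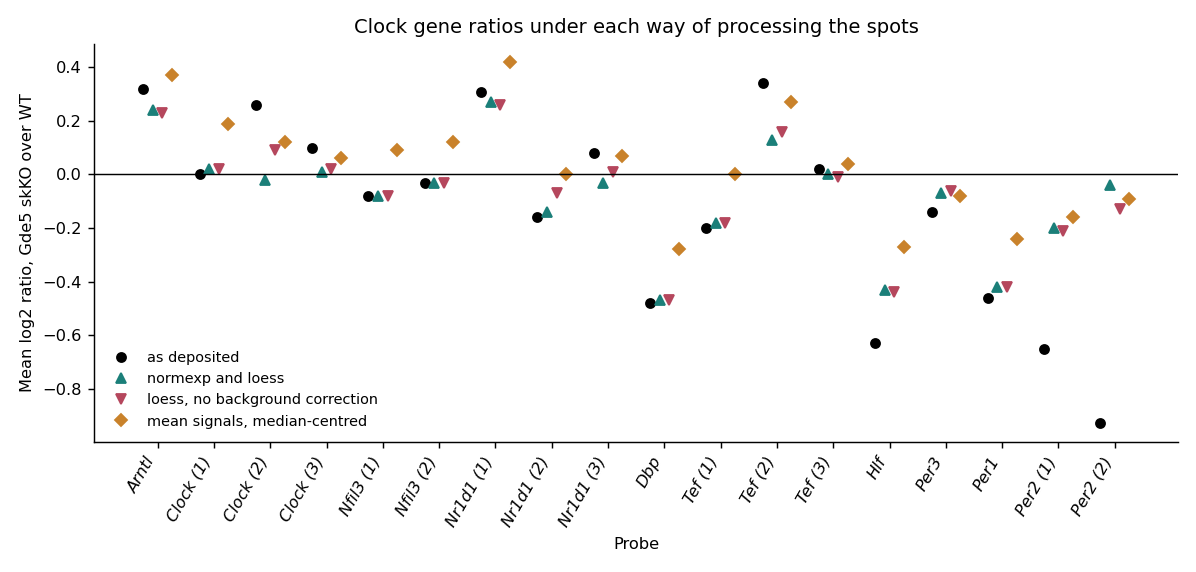
Mean log2 ratio of *Gde5* skKO over WT (vertical axis) of the 18 tested clock gene probes under 4 ways of processing the spots. Dbp lies at -0.48, -0.47 and -0.47 by the deposited ratios and both loess fits, Hlf and the Per2 probes shrink toward 0, and median-centred mean signals lie higher for most probes.

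The size of the ratios depended on how the spots were processed. Relative to the median of all tested probes, Hlf was at -0.65 as deposited, -0.43 with normexp and loess, and -0.37 with median-centred mean signals, a scaling that put that median at 0.10. Dbp was at -0.49, -0.47 and -0.38, and Per1 at -0.48, -0.42 and -0.34. All 3 genes were below that median under each of these ways of processing.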

How the data were processed

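GAS muscle RNA was compared on 2 dye-swapped two-colour Agilent whole mouse genome arrays from 1 slide and 1 scan. The authors quantified the scanned images with Feature Extraction, 9.5.3.1 per the file headers. In the deposited files a spot has a log10 ratio (Cy5 over Cy3, background-subtracted and dye-normalized), an error of that ratio (unit other), a p-value from the software's error model, and the intensity and local background of each channel. The series table deposited by the authors holds rounded copies of the log10 ratios.

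Ratios were converted to log2, the sign of array 2 was reversed so that all read *Gde5* skKO over WT, and spots of a probe were averaged. For a probe with several spots the error is their mean error and the p is their median p. Cdkn1a and the called probes of Mt1 and Kdr had 10 spots on each array. Control spots, spots with outlier marks (195 on array 1, 221 on array 2, of 43379) and 11 spots of array 1 with a local background over 1.5 times the spot signal were left out. Between 44.6% and 53.2% of spots were well above background in a channel. Probes were named through RefSeq by accession (24303), symbol (6288) or synonym (2419), and 8059 of 41069 kept the array's name. Probe coordinates come from the array's annotation, on mm8. Every probe of a member is reported, and of the other lists each called gene and the 3 others with the largest mean ratio. Some of the latter among the other clock components are not reported here. The members and lists were chosen with earlier results of these data known. Nr1d2, Tcap, Myod1 and Ucp3 were named after their values were seen. The interval of a mean ratio is 95%, from both spot errors.

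Alternatives used limma 3.58.1 (R 4.3.3, normexp with an offset of 50, then loess, moderated test with Benjamini-Hochberg adjustment over all tested probes). Others were further thresholds and filters, an unpaired Student's t-test of log2 channel signals, and each array alone. The study names Student's t-test for comparing groups, and for the arrays it names Feature Extraction only. Python 3.11.15 did the rest, and the steps were tested on simulated data.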

Additional observations from a re-analysis of the deposited data

How the results depend on the processing

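Leaving out 1 array gave 3 to 4 member probes lower and 0 to 1 higher, and of the other clock component and output probes 2 to 3 higher and 1 to 2 lower. Hlf was among the lower probes on either array. Without array 2 the lower probes were Hlf, Dbp and Per1, and without array 1 they were Hlf, Per3 and both Per2 probes, with Clock higher. Per3 and the dimmer Per2 probe passed the filter on array 2 through the WT channel alone. Adjustment of the Feature Extraction p within each array left 0 member probes lower and 1 other probe (Cdkn1a) higher. Limma's moderated test without adjustment gave 2 member probes higher (Arntl, Nr1d1), 3 lower (Dbp, Hlf, Per1) and 5 other probes higher. With adjusted p it gave 0 member probes lower and 1 other probe (Pdk4) higher. The t-test of channel signals does not pair the 2 signals of an array. It gave 2 member probes higher (Arntl, Tef), 1 lower (Dbp in place of Hlf) and 1 other probe lower (Rora). The interval of the mean, added after the data were seen, gave 3 member probes higher, 5 lower and 1 other probe lower. A threshold of 0.01, no filter on dim probes, a filter on both channels, a ratio of 1.5-fold besides, and the brightest probe of each gene all left Hlf as the member called lower. Over all tested probes, 283 were called higher and 301 lower. These counts were 129 and 155 at the threshold of 0.01, 62 and 88 after adjustment within arrays, 778 and 770 with limma unadjusted, 40 and 75 with limma adjusted, 852 and 751 with the t-test of channel signals, and 183 and 213 with the 1.5-fold ratio. The cause of these differences was not tested.

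Of the 18 mean ratios, 14 kept their sign with normexp and loess, 16 with loess alone, 13 with median-centred mean signals and 18 in the series table. Signs were read after rounding to 2 decimals. A value of 0.00 set against any other therefore counted as a lost sign, as for the brightest Clock probe, so not every loss is a reversal. Each ratio sets both genotypes against each other within an array, so the limma test of the 2 ratios is already paired by array, and no further replicate block was fitted. The spread between mice cannot be estimated from these 2 arrays, and signals near background leave Per2, Per3 and the dimmer Clock and Tef probes poorly measured.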
